A study of Mus musculus with 8 samples.

Results

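Receptors for the constant region of immunoglobulins, and the signalling proteins they work with, were followed in mouse myeloid cells before and after loss of Meis1. The set consists of 9 listed genes: the immunoglobulin G receptors Fcgr1, Fcgr4, Fcgr3 and Fcgr2b, the adaptors Fcer1g and Tyrobp, and the kinases Syk, Lyn and Fgr. Its members were the probe sets to which the array's annotation gives exactly 1 of these symbols, 13 of 45037 probe sets in all, and they cover 8 of the 9 genes, among 17097 genes with a symbol of their own in the table. No probe set of the table carries the symbol Lyn, so that gene was not analysed here. Fcgr2b has 4 probe sets, Fcgr1 and Fgr have 2 each, and the other 5 genes have 1 each.

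Both groups came from bone marrow of C57BL/6 mice with a Cre-ERT2 recombinase knocked in at Rosa26, transformed in culture with retroviral Hoxa9 and a floxed Meis1. The Meis1 deleted group (4 arrays) had received 2 µM 4-hydroxytamoxifen, which activates this Cre, and so kept Hoxa9 alone. The Hoxa9 and Meis1 group (4 arrays) had received no drug, so the effects of the drug and of Cre activity cannot be told apart from that of the deletion. Both groups carried the Cre and the Hoxa9 virus and grew in medium with 5 ng/ml interleukin-3. The labels do not say that the 4 samples of a group were separate cultures, so each p-value reflects only the spread among these samples, and that spread may be technical. The labels report a PCR check of the deletion, but do not give the share of cells that lost Meis1.

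Immunoglobulin G receptors let phagocytes bind antibody-coated targets. The activating ones (Fcgr1, Fcgr3 and Fcgr4) signal through Fcer1g, a short membrane protein with an ITAM, a paired tyrosine motif that Src family kinases such as Lyn and Fgr phosphorylate. The phosphorylated motif recruits the kinase Syk. Fcgr2b carries the opposite kind of motif, an ITIM, which recruits phosphatases that damp the signal. Tyrobp is a second ITAM adaptor, used in myeloid cells by receptors such as Trem2.

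The regions around the transcription starts are shown for the 4 receptor genes because the receptors moved by very different amounts. They are RefSeq sequences of the GRCm38.p6 build, 250 bases before to 50 bases after the start, on the gene's own strand. The window of Fcgr1 is chr3:96293920-96294219 (minus strand), that of Fcgr4 is chr1:171018676-171018975 (plus strand), that of Fcgr3 is chr1:171059354-171059653 (minus strand, the first of 2 overlapping windows) and that of Fcgr2b is chr1:170976022-170976321 (minus strand). Capitals mark the matches to the motifs searched on both strands.
Fcgr1: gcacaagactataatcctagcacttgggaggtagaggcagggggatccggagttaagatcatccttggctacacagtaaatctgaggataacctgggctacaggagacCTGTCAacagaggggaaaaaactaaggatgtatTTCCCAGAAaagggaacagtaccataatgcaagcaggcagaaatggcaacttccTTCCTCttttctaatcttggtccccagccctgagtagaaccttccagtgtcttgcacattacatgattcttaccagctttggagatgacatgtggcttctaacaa
Fcgr4: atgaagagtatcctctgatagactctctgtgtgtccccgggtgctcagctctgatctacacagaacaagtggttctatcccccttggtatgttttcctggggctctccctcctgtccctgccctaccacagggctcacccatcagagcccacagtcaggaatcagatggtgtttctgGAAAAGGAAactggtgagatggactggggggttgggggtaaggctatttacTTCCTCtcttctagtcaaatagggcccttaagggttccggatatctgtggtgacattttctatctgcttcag
Fcgr3: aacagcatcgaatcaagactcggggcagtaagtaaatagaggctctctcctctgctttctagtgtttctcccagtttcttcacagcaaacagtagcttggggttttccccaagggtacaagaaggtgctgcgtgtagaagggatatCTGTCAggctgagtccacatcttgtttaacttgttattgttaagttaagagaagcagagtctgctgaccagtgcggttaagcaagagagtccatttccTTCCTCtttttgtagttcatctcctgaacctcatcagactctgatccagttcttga
Fcgr2b: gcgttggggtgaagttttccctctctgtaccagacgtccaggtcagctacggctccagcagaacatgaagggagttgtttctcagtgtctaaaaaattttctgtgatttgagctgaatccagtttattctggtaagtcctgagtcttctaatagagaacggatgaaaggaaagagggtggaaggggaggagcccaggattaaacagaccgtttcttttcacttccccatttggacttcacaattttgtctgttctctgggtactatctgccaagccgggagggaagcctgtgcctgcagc

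Windows were found for 7 of the 9 genes, and the first window of each was compared. Fcgr1 held the letters TTCCCAGAA 109 bases before its start, a match to the STAT pattern TTCNNNGAA, which was present in 8.3% of 32851 mouse promoter windows and in no other of the 7 first windows. Fcgr4 held GAAAAGGAA 73 bases before its start, a match to the IRF pattern GAAANNGAA, present in 8.56% of all windows and again in no other of the 7. The PU.1 core GAGGAA was present on the opposite strand in Fcgr1 (55 bases before the start), Fcgr4 (22 bases), Fcgr3 (6 bases) and Fgr (32 bases after the start), against 28.3% of all windows. The Meis core TGACAG was present on the opposite strand in Fcgr1 (142 bases before the start) and Fcgr3 (104 bases), against 19.2% of all windows. The AP-1 pattern TGANTCA (7.81% of all windows) and the Pbx-Hox pattern TGATTNAT (3.22%) were in none of the 7 windows, and the window of Fcgr2b held none of the 6 patterns. None of these patterns overlapped another in the windows shown. These matches describe letters only and were not tested as binding sites.

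Levels are on the log2 scale, as deposited for each probe set, and every difference below is Meis1 deleted minus Hoxa9 and Meis1. Probe sets in the lowest 40% by mean (below 4.29) were left out of the test. Of the 13 member probe sets 12 passed this filter, in each case with both group means above it, and the only one left out was that of Syk. A gene was represented by its kept probe set with the highest mean, and limma was fitted across the whole table, with p-values adjusted over the 11836 genes tested. Of the 7 tested members 6 were higher in Meis1 deleted cells and 0 were lower (adjusted p below 0.05). Across all genes 35.5% were called, 18.1% higher and 17.5% lower. In bulk RNA of this kind, fewer or more cells of a type and less or more RNA per cell cannot be told apart. The median difference was 0.38 for the 7 members and -0.0044 for all genes. A rise of at least 2-fold was called for 2 of the 7 members and for 2.51% of all genes. The groups did not overlap, with every Meis1 deleted array above every other, for 5 of the 7 members and for 19.7% of all genes.

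**Figure D1:**
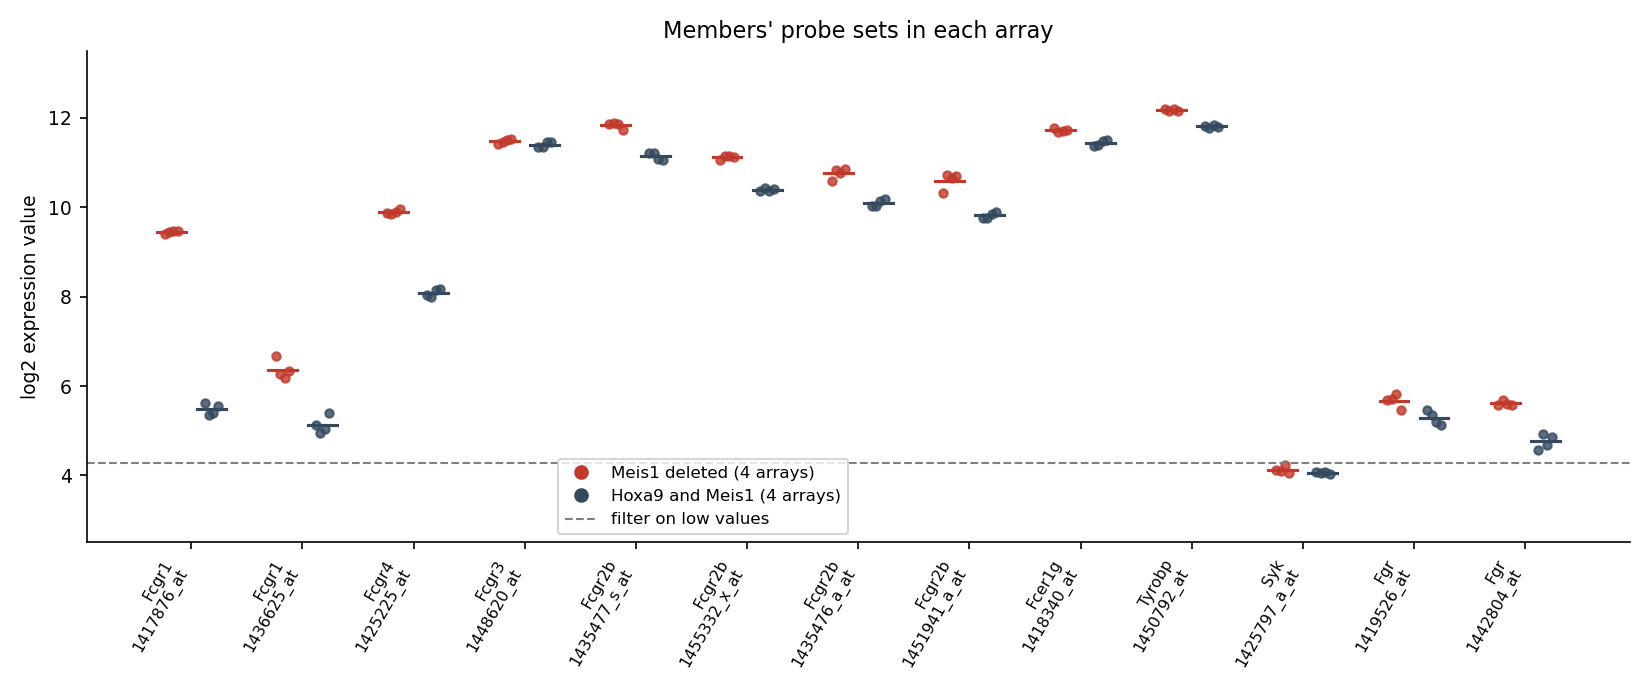
Log2 expression values of the 13 member probe sets in each of the 8 arrays, Meis1 deleted arrays on the left of each pair and Hoxa9 and Meis1 arrays on the right. Points are arrays, short bars are group means and the dashed line is the filter at 4.29. Fcgr1 shows the widest gap between the groups, Fcgr3 overlaps, and Syk lies under the filter.

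Before the single genes, 4 facts about the arrays bear on them. For Meis1 itself the kept probe set gave 5.02 ± 0.07 (SD, n = 4) on the Meis1 deleted arrays and 5.00 ± 0.05 on the others (limma adjusted p = 0.759), and the sources used here do not say whether it lies in the retroviral cDNA, so it checks neither the labels nor the deletion. The arrays fell into 2 groups by the spiked bioB control, a technical split that the labels do not name: 3 Meis1 deleted and 2 Hoxa9 and Meis1 arrays in group 1, and 1 and 2 arrays in group 2. Meis1 deleted replicate 1 stood apart in the Gapdh control, where the probe set at the transcript's start read 0.72 below the one at its end, against differences between -0.04 and 0.07 in the other 7 arrays. Leaving that array out kept 6 of 7 members higher. Pan-leukocyte Ptprc read between 11.51 and 11.69 in Meis1 deleted arrays and between 11.35 and 11.38 in the others, and all 8 myeloid markers were above the filter in the table.

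Among the activating receptors, Fcgr1, which binds single immunoglobulin G molecules with high affinity, changed most. Its main probe set (1417876_PM_at) read 9.40, 9.44, 9.46 and 9.47 in the Meis1 deleted arrays, against 5.62, 5.36, 5.39 and 5.55 in the Hoxa9 and Meis1 arrays. The lowest Meis1 deleted array was therefore far above the highest of the other group. The log2 fold change was 3.96 ± 0.06 (SE), which is 15.6-fold, with a limma adjusted p of 2.53e-10 and a 95% interval of 3.81 to 4.11. This was the 18th largest rise among the 11836 genes. The second probe set (1436625_PM_at) read 6.67, 6.27, 6.18 and 6.34 in Meis1 deleted arrays and 5.12, 4.94, 5.04 and 5.40 in the others, a rise of 1.24 ± 0.12 (adjusted p = 7.09e-05 over 27022 probe sets). Both probe sets gave separate groups, but the size depends on which is read: with the mean of the pair the log2 fold change was 2.60. With an offset of 64 added on the linear scale it was 2.80. The main probe set in cells with Meis1 lay below 6.42, the median over kept probe sets, so the size of its rise is less certain than its direction.

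Fcgr4, a receptor of monocytes, macrophages and neutrophils that binds the complement-fixing IgG2 subclasses, changed second most. It read 9.87, 9.84, 9.89 and 9.95 in Meis1 deleted arrays, against 8.04, 7.99, 8.14 and 8.16 in Hoxa9 and Meis1 arrays. The groups lay far apart, with arrays of a group close together. The rise was 1.81 ± 0.05 on the log2 scale, or 3.49-fold (adjusted p = 1.11e-08), and ranked 107th among all genes.

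Fcgr3, the low-affinity activating receptor, differed from both. It read 11.41, 11.46, 11.50 and 11.53 in Meis1 deleted arrays, and 11.34, 11.35, 11.46 and 11.46 in Hoxa9 and Meis1 arrays. The groups overlapped, and the difference of 0.07 ± 0.05 did not pass (adjusted p = 0.310), with a 95% interval of -0.04 to 0.19. It passed in a fit that blocked on the bioB group and dropped Meis1 deleted replicate 1, at a difference of 0.11 (adjusted p = 0.0411).

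Fcgr2b, the inhibitory receptor, was higher in Meis1 deleted cells at all 4 of its probe sets. The main one (1435477_PM_s_at) read 11.85, 11.89, 11.85 and 11.73 in Meis1 deleted arrays, against 11.22, 11.22, 11.08 and 11.06 in the others. No array of one group reached into the other, and the rise was 0.68 ± 0.06, or 1.61-fold (adjusted p = 2.00e-05). The other 3 probe sets gave rises of 0.74 ± 0.04, 0.67 ± 0.07 and 0.78 ± 0.09 (adjusted p between 1.87e-06 and 1.76e-04 over 27022 probe sets). The suffixes s and x mark probe sets that can match more than 1 transcript, and the extracellular parts of Fcgr2b and Fcgr3 are closely alike, so a share of signal from the other gene cannot be told apart. The Fcgr3 probe set itself gave a difference of 0.07, as above.

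Over probe sets rather than genes, 11 of the 12 kept member probe sets were higher and 0 were lower, against 14.2% and 17.1% of all kept probe sets. For 10 of the 12 the groups did not overlap, against 15.7% of all kept probe sets with Meis1 deleted above. Probe sets of a gene share its transcripts and are not independent.

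Both adaptors were higher in Meis1 deleted cells. Fcer1g, the common gamma chain of the activating receptors, read 11.77, 11.68, 11.70 and 11.72 in Meis1 deleted arrays, against 11.36, 11.40, 11.48 and 11.51 in Hoxa9 and Meis1 arrays. Its rise was 0.28 ± 0.05, or 1.22-fold (adjusted p = 0.00188). Tyrobp read 12.21, 12.15, 12.19 and 12.15, against 11.83, 11.78, 11.83 and 11.81 in the Hoxa9 and Meis1 arrays, a rise of 0.36 ± 0.04, or 1.29-fold (adjusted p = 1.16e-04). Neither adaptor's groups overlapped.

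Of the kinases, Fgr, a Src family member of myeloid cells, was higher in Meis1 deleted cells. Its main probe set (1419526_PM_at) read 5.69, 5.72, 5.81 and 5.46 in Meis1 deleted arrays, against 5.47, 5.35, 5.20 and 5.12 in the others. The groups overlapped, since the lowest Meis1 deleted array lay just under the highest array of the other group. The rise was 0.38 ± 0.09 (adjusted p = 0.0119). The second probe set (1442804_PM_at) read 5.57, 5.68, 5.60 and 5.58, against 4.57, 4.93, 4.67 and 4.87 in the Hoxa9 and Meis1 arrays. Here the groups were apart and the rise was 0.85 ± 0.08 (adjusted p = 5.05e-05 over probe sets). The mean of the pair gave 0.61, and an offset of 64 gave 0.16 for the main probe set, so the size is uncertain while the direction was shared. Syk, the kinase that binds phosphorylated ITAMs, has 1 named probe set, which read 4.12, 4.09, 4.24 and 4.07 in Meis1 deleted arrays and 4.07, 4.06, 4.08 and 4.04 in the others. These values lie at the floor of the table and the groups overlap (difference 0.06 ± 0.05, adjusted p = 0.443 over 45037 probe sets with no filter, of which 8.69% were called higher). They say nothing firm about the Syk transcript, and unnamed probe sets of the gene were not used here.

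**Figure D2:**
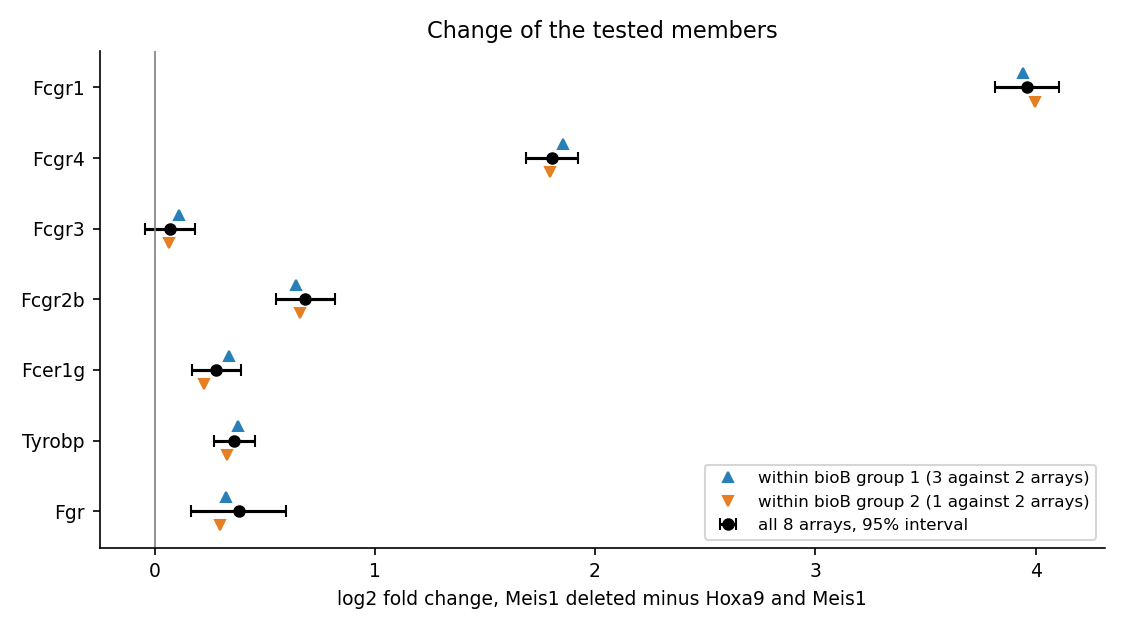
Log2 fold changes (Meis1 deleted minus Hoxa9 and Meis1) of the 7 tested members, with 95% limma intervals over all 8 arrays. Triangles give the same fold change within each of the 2 bioB groups of arrays, which lie close to the pooled value for each member. Fcgr1 and Fcgr4 stand well to the right of the other 5.

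Within bioB group 1 and group 2 the log2 fold changes were 3.94 and 4.00 for Fcgr1 and 1.85 and 1.80 for Fcgr4. They were 0.11 and 0.07 for Fcgr3, and 0.64 and 0.66 for Fcgr2b. For the adaptors they were 0.34 and 0.23 for Fcer1g and 0.38 and 0.33 for Tyrobp, and for Fgr 0.33 and 0.30. Group 2 holds a lone Meis1 deleted array, which is assumed to vary like the 2 Hoxa9 and Meis1 arrays there. With so few arrays the adjusted p of limma was 0.0920 for Fcer1g and 0.0684 for Fgr, and this does not show that the differences were smaller.

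The receptors' changes were compared with each other inside each array, as the difference of 2 log2 values. Such a difference shows unequal change and does not rank the genes by level. Fcgr1 minus Fcgr2b averaged -2.39 ± 0.09 (SD, n = 4) in Meis1 deleted arrays and -5.67 ± 0.15 in Hoxa9 and Meis1 arrays, a shift of 3.28, or 9.68-fold in favour of the activating receptor. Fcgr4 minus Fcgr2b averaged -1.94 ± 0.11 in Meis1 deleted arrays and -3.06 ± 0.17 in the others, a shift of 1.12, or 2.17-fold. Fcgr3 minus Fcgr2b went the opposite way, at -0.36 ± 0.11 in Meis1 deleted arrays and 0.26 ± 0.16 in the others, a shift of -0.61. So Fcgr2b gained on Fcgr3 and lost ground to Fcgr1 and Fcgr4. In each of these 3 pairs the groups did not overlap, and the two-sided exact permutation test gave p = 0.0286, the smallest that 4 against 4 arrays allow (adjusted p = 0.0381 over the 4 pairs compared). With the mean of each gene's probe sets the shift of Fcgr1 minus Fcgr2b was 1.88. An offset of 64 gave 2.13. The pairs were chosen with the direction of the members known.

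Fcer1g minus Tyrobp averaged -0.45 ± 0.03 in Meis1 deleted arrays and -0.37 ± 0.07 in the others. The groups overlapped, and the shift of -0.08 did not pass (exact permutation p = 0.114, adjusted p = 0.114). It passed without Hoxa9 and Meis1 replicate 1, at -0.11 (exact permutation, adjusted p = 0.0286).

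**Figure D3:**
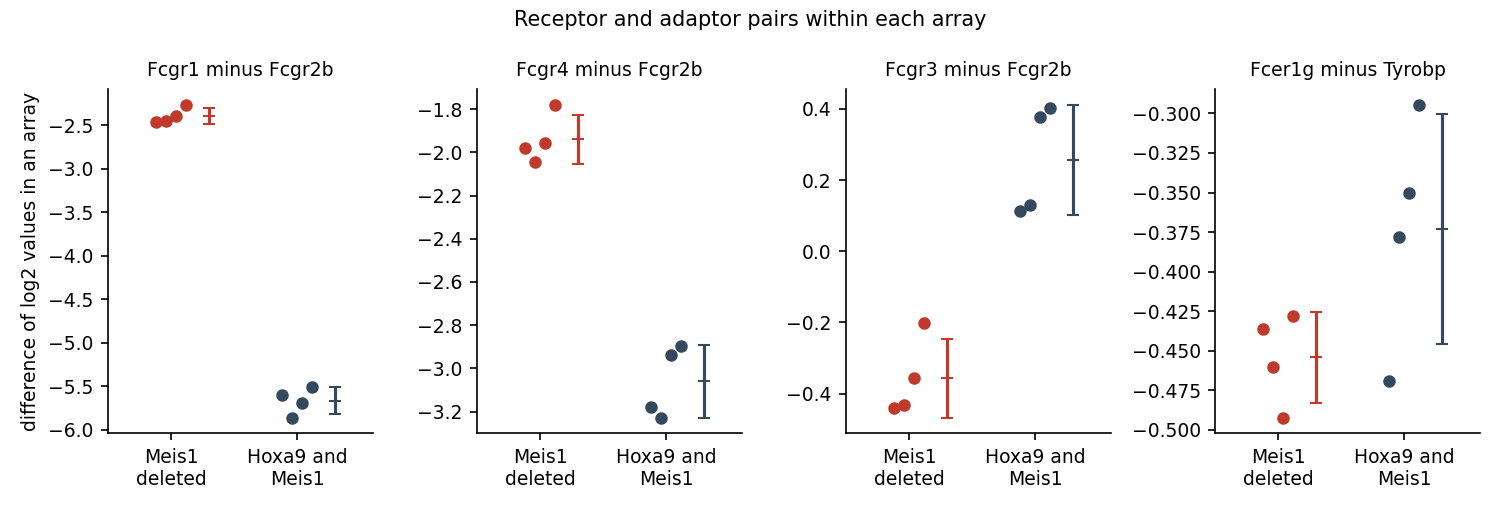
Difference of 2 log2 values within each array for 4 gene pairs, Meis1 deleted arrays on the left and Hoxa9 and Meis1 arrays on the right of each panel. Points are arrays, bars with caps are mean ± SD, and each panel has its own vertical scale. The first 3 panels show separate groups, with the third in the opposite direction, and the last shows overlap.

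Fcgr2b, Fcgr4, Fcgr3 and Fcer1g lie within 11 neighbouring protein-coding genes of mouse chromosome 1 in the RefSeq order, while Fcgr1 (chromosome 3), Tyrobp (7), Syk (13) and Fgr (4) lie elsewhere. This order was looked up after the values were seen. Of the 7 non-member genes in this stretch and its 3 flanking genes on either side that were tested, 0 were higher, 1 was lower and 6 did not pass. Fcgr3 and the next 2 genes gave 0.07 ± 0.05, 0.06 ± 0.06 (Cfap126, a cilium gene) and 0.01 ± 0.05 (Sdhc, a subunit of succinate dehydrogenase). Pcp4l1 was lower by a log2 fold change of -0.32 ± 0.06 (adjusted p = 0.00305), close to the filter in both groups (4.72 and 5.05). The rises on this stretch were thus measured at Fcgr2b, Fcgr4 and Fcer1g. Of the tested genes between Fcgr3 and Fcer1g, Pcp4l1 was lower and the others did not pass. Nr1i3 among them also lay close to the filter (4.59 in Meis1 deleted cells and 4.58 in the others).

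**Figure D4:**
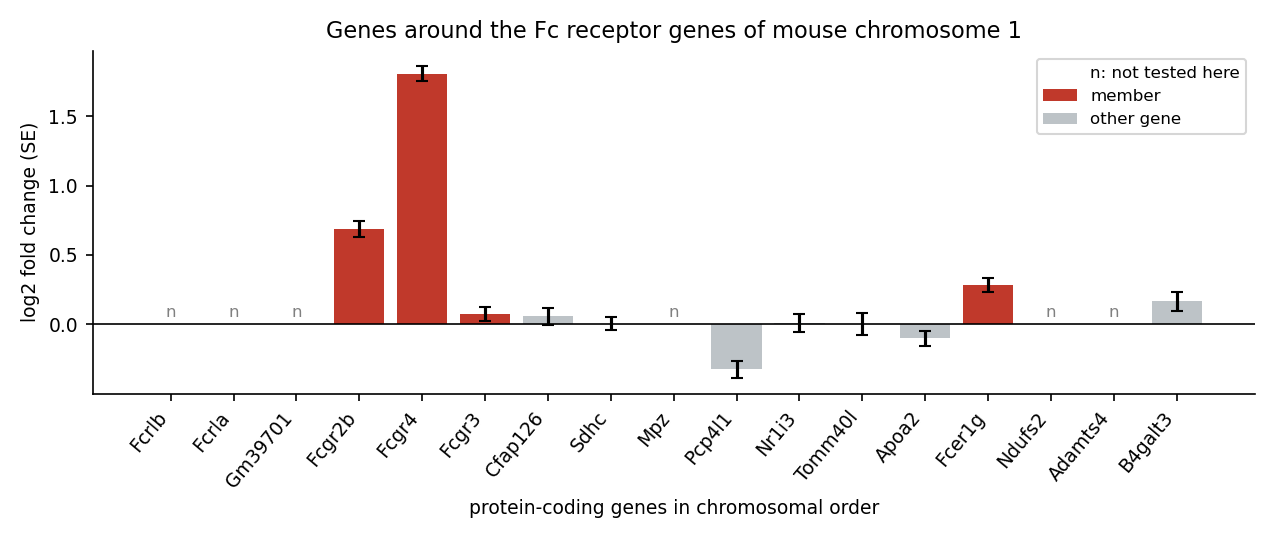
Log2 fold changes with limma standard errors for 17 protein-coding genes of chromosome 1 in chromosomal order, 3 flanking genes on each side of the stretch from Fcgr2b to Fcer1g. Red bars are members, grey bars other genes, and n marks genes not tested here. Fcgr4 is the tallest bar, and Sdhc, Nr1i3 and Tomm40l have bars too short to see.

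The genes whose centred profiles over the 8 arrays were nearest to that of Fcgr1 were Saa3, an acute-phase protein gene, Mertk, a receptor for apoptotic cells, and Ms4a6d, with root mean square differences of 0.103, 0.108 and 0.110 log2 units. Nearest to Fcgr4 were the granule protein gene Camp (0.0385), Parp9 (0.0502) and Oas1g, an antiviral gene (0.0503). Nearest to Fcgr2b were Phlda3 (0.0354), Polk (0.0436), a DNA polymerase, and Nlk (0.0490), a kinase. Genes with a like difference between the 2 groups score as near by this measure.

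Most macrophage and neutrophil markers measured were higher in Meis1 deleted cells, as were Fcgr1, Fcgr4 and Fcgr2b but not Fcgr3. Of 6 measured macrophage markers 5 had both group means above the filter, and all 5 were higher. The summed linear level of the 6 ran from 6509 to 6772 in Meis1 deleted arrays and from 2262 to 2418 in the others. C1qa, a complement gene, read 8.83 ± 0.10 in Meis1 deleted cells and 3.86 ± 0.15, under the filter, in the others, so it passed the filter only through the group where it is high. Mrc1, the mannose receptor, read 10.97 ± 0.15 in Meis1 deleted cells and 4.54 ± 0.11 in the others, and Mertk read 8.40 ± 0.07 in Meis1 deleted cells and 4.38 ± 0.13 in the others. Their levels in cells with Meis1 lie close to the filter, so the sizes of these differences are uncertain. Adgre1, a macrophage surface protein well above the filter in both groups, rose by 0.40 ± 0.06. Of 5 measured neutrophil markers 4 were higher (Ltf, Mmp8, Camp and Ngp) and 1 was lower (Cxcr2, -0.25 ± 0.07). Their sums ran from 9212 to 9964 in Meis1 deleted arrays and from 3728 to 4002 in the others. The part of these markers' cell types in the receptors' rises was not tested.

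A list of other receptors that signal through Fcer1g or Tyrobp was split. Of 12 genes tested 5 were higher, 2 were lower and 5 did not pass, with a median difference of 0.04. Of the 2 lower genes, Hcst (-0.29 ± 0.06) is itself an adaptor and not a receptor. Among the 5 higher genes, Ms4a2 is the partner of the IgE receptor gene Fcer1a. It rose by 0.20 ± 0.07 (limma adjusted p = 0.0435) at low levels, and its groups overlapped. Clec4n, a lectin for fungal mannans, read 11.82 ± 0.03 in Meis1 deleted cells and 9.19 ± 0.06 in the others (log2 fold change 2.62 ± 0.05, adjusted p = 3.48e-10). Trem2, a lipid-sensing receptor that uses Tyrobp, rose by 2.42 ± 0.09, and Pilrb1, an activating paired receptor, rose by 1.16 ± 0.05. The probe sets of Clec4n and Trem2 have the suffix s and can match other transcripts too. Trem1, an amplifier of inflammatory signals that also uses Tyrobp, was at 7.39 ± 0.15 in Meis1 deleted cells and 8.53 ± 0.05 in the others (-1.14 ± 0.08, adjusted p = 3.12e-06). With the mean of each gene's probe sets 3 were higher and 2 lower.

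Of 24 tested transducers of ITAM signals 23 had both group means above the filter, and of these 10 were higher, 3 were lower and 10 did not pass (median 0.12). The remaining one, the B cell linker gene Blnk, read 4.87 in Meis1 deleted cells and 4.24, under the filter, in the others, and was left out of this count. All tested genes of the other 4 pathway lists had both group means above the filter. Fyb, an adaptor that links immune receptors to integrins, rose by 1.07 ± 0.06 (adjusted p = 1.00e-06). The Ras pathway adaptor Grb2 rose by 0.59 ± 0.05, and Pik3ap1, an adaptor for phosphoinositide 3-kinase, rose by 0.36 ± 0.06. Bcl10, which carries the signal to NF-kB, was lower (-0.47 ± 0.04, adjusted p = 3.13e-05). The Tec family kinase Btk (0.03 ± 0.05) and phospholipase Plcg2 (0.12 ± 0.04, adjusted p = 0.0640) did not pass.

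Of the genes that restrain ITAM signals, 17 were tested. Of these 10 were higher, 1 was lower and 6 did not pass (median 0.33). The 10 include the pan-leukocyte marker Ptprc (0.21 ± 0.05), whose action on these signals is not restraint alone. Sirpa, an inhibitory receptor for the CD47 self marker, read 9.57 ± 0.26 in Meis1 deleted cells and 8.34 ± 0.04 in the others (1.23 ± 0.11, adjusted p = 2.97e-05). The ITIM receptor Cd300a rose by 0.86 ± 0.04, the docking protein Dok1 by 0.76 ± 0.05, and the ITIM receptor Lilrb4a by 0.39 ± 0.04. The probe set of Lilrb4a has the suffix s, so a share of signal from another transcript cannot be told apart. The phosphatases Inpp5d (0.49 ± 0.07) and Ptpn6 (0.41 ± 0.09), which ITIM receptors such as Fcgr2b recruit, rose too, while Ptpn11 (0.00 ± 0.04) did not pass. Pag1, which holds the kinase Csk at the membrane, was lower (-0.22 ± 0.06), and with the mean of each gene's probe sets 0 were lower. The shares of called genes in these 3 lists stand against 18.1% higher and 17.5% lower over all genes, and the lists were not tested as sets.

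**Figure D5:**
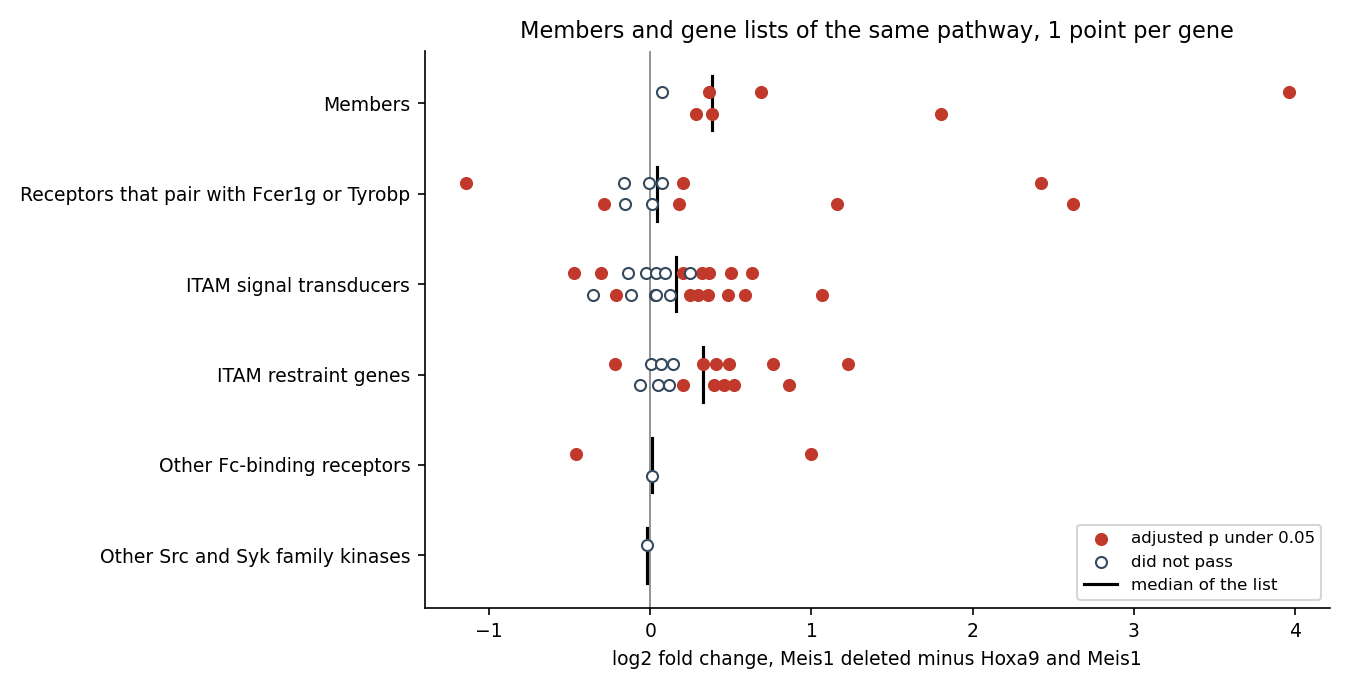
Log2 fold changes (Meis1 deleted minus Hoxa9 and Meis1) of the 7 tested members and of the tested genes of 5 lists, 1 point per gene. Filled points passed the test, open points did not, and vertical bars are medians over all tested genes of a list. The members, at a median of 0.38, include the largest rise (Fcgr1), and Trem1 has the largest fall shown.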

How the data were processed

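RNA of 8 samples was measured on 1-colour Affymetrix arrays from 100 ng of total RNA, per the labels. The deposited values are log2 values per probe set made by the authors, judged so from their range, and they have nearly equal quantiles (medians 4.69 to 4.74). Per the submitters' processing notes MAS5 belongs to the tools, without a stated version or step. For how probes were summarised, and on which build, the sources are silent: not given in the sources used here.

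Control probe sets (104) were left out. Symbols came from the platform annotation, which gave 1 symbol to 28898 probe sets and several to 551, while 15588 were unnamed here. The filter kept 27022 probe sets. Group differences came from limma 3.58.1 in R 4.3.3 (lmFit, eBayes), with the variance prior from all kept probe sets and Benjamini-Hochberg adjustment over 11836 genes at 0.05. Errors of fold changes are standard errors, and errors of levels are SDs over 4 arrays. The design allowed for an offset on linear values, which the log2 values did not need. Shifts of gene pairs were tested by exact permutation, two-sided, over 70 assignments. The number of arrays limits the precision. The procedure was tested on simulated data.

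All members and their probe sets are named. From each of 5 pathway lists the up to 4 genes with the smallest p are named, with 3 genes of the most alike profile for each of 3 receptors. Other genes named (Hcst, Btk, Plcg2, Inpp5d, Ptpn6, Ptpn11 and Pag1, and the neighbouring and marker genes) were picked with their values in view. The members and lists were chosen with earlier results of these data known. A planned step on protein motifs was not run, and protein sequences were not used here. Alternatives covered offsets of 1 and 64, quantile and 75th percentile scaling, no filter or a 60% filter, the mean of probe sets, variance models, blocks and each array left out. Python 3.11.15 and matplotlib 3.10.9 drew the plots.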

Additional observations from a re-analysis of the deposited data

Results flagged for a closer look

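Of 26 groups of 4 arrays examined (13 member probe sets in each of 2 groups), 1 held an array far from the other 3. For the Fcgr2b probe set 1451941_PM_a_at, Meis1 deleted replicate 1 read 10.315, against 10.66 to 10.71 in the other Meis1 deleted arrays. Its gap to the nearest array was 0.859 of the group's range, above Dixon's 95% critical value for 4 samples. Chance alone gives about 1 such array in 20 groups. The same array stood apart in the Gapdh control, and whether the 2 are linked was not tested.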

How the results depend on the processing

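Of 162 values of single members under the alternatives, 159 stayed on the same side of the threshold in the same direction, 2 lost the call (both within bioB group 2, which has 1 Meis1 deleted array), 1 gained it, and 0 turned sign. The count of members higher stayed at 6 with each array left out and ran from 4 to 7 over 23 alternatives, and 0 were lower in any of them. The count of member probe sets higher was 11 with each array left out. Within bioB groups 1 and 2, where fewer arrays were tested, 2114 and 2158 genes changed, against 4206 over all arrays (3426 to 4673 with each array left out). With the variance prior from the tested genes alone, added after seeing the data, 4474 changed.

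The titles number the replicates of both groups 1 to 4, but same-numbered arrays did not deviate together (correlations of deviations between -0.13 and 0.29), so the numbers were not taken as pairs. With the replicate number as a block 3906 genes changed and 6 members were higher. In the exact sign-flip test of same-numbered arrays, the pairing left the shifts of Fcgr1, Fcgr4 and Fcgr3 minus Fcgr2b at 3.28, 1.12 and -0.61, with an adjusted p of 0.167, and 4 pairs are too few for that test to pass. Within bioB group 1 these shifts were 3.30, 1.21 and -0.53 (exact permutation, adjusted p = 0.133), and within group 2 they were 3.34, 1.14 and -0.59 (exact permutation, adjusted p = 0.333). These designs hold too few arrays to pass. With each array left out the 3 shifts ran from 3.21 to 3.33, 1.06 to 1.18 and -0.66 to -0.56, and that of Fcer1g minus Tyrobp from -0.11 to -0.055. Low signal limits the values of Syk, Fgr and Fcgr1 in cells with Meis1.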

Other observations

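Among 11 other genes of Fc-binding or Fc receptor-like proteins, 9 had a probe set and 3 were above the filter. Trim21, an antibody receptor of the cytosol, rose by 0.99 ± 0.05 (limma adjusted p = 7.67e-07). Fcgrt, the neonatal Fc receptor that recycles immunoglobulin G, was at 6.49 ± 0.08 in Meis1 deleted cells and 6.95 ± 0.10 in the others (log2 fold change -0.46 ± 0.06, adjusted p = 4.61e-04). It thus went the opposite way to the surface receptors Fcgr1, Fcgr4 and Fcgr2b. The Fc receptor-like gene Fcrls did not pass (0.01 ± 0.10). Of the other Src and Syk family kinases 6 had a probe set and 5 lay under the filter, while Fyn did not pass (-0.02 ± 0.06).

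Markers of other blood cells were examined too. The IgE receptor gene Fcer1a lay under the filter, its partner Ms4a2 read 5.09 ± 0.10 in Meis1 deleted cells and 4.89 ± 0.10 in the others (adjusted p = 0.0435), and the basophil protease Mcpt8 was lower (-0.74 ± 0.13). Of the mast cell and basophil list 1 of 3 tested was higher and 1 lower. For B cell, T cell, natural killer and dendritic cell markers, 2, 3, 2 and 2 genes were tested and 0 were called in either direction. Of the erythroid and megakaryocyte markers 2 of 3 were higher, the platelet chemokine gene Pf4 (3.84 ± 0.06) and Epor (0.22 ± 0.07). In the same list Itga2b did not pass (-0.21 ± 0.09), and Gp1bb lay under the filter. Of 8 myeloid markers 4 were higher and 3 lower.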
